A study of Mus musculus with 25 samples.

Results

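Transcripts of 8 receptors carried by natural killer (NK) cells and by cytotoxic T cells, together with those of 2 ligands for a receptor of that group, were described across 25 mouse melanomas. The genes were the rows of the deposited count table whose symbol was Ncr1, Klrb1c, Klrk1, Klrd1, Klrc1, Klrc2, Klre1, Klrg1, Raet1e or Ulbp1. All 10 were found among 55450 genes. All 10 were also among the 18031 genes kept by the low-count filter. Raet1e and Ulbp1 encode ligands of the receptor NKG2D, so the group holds 8 receptors and 2 ligands.

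NK cells decide whether to kill a target by weighing signals from activating and inhibitory receptors. Most of these receptors in mice are lectin-like proteins encoded side by side in the NK gene complex, and many of them are also switched on in activated or memory CD8 T cells, gamma delta T cells and NKT cells. Activating receptors carry no signalling tail of their own and pass the signal to small adaptors such as DAP10 and DAP12, while inhibitory receptors recruit phosphatases through motifs in their tails. NKG2D recognises stress-induced surface proteins of the RAE-1, H60 and MULT-1 families on transformed cells.

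The tumours were grown in C57BL/6 mice from the melanoma line B2905, called M4 as well, and all came from that line. Per the labels, 40 mice were implanted and dosing started at a mean tumour volume of 75 mm3. Antibody against CTLA-4, an inhibitory receptor of T cells, was given to 30 mice, and isotype IgG2b to 5 mice, both at 10 mg/kg, with 2 doses a week for 2 weeks. The 20 sequenced anti-CTLA-4 tumours comprised 8 responders, which had shrunk when outcome was called 10 to 11 days after the final dose, 6 stable tumours and 6 non-responders, which had grown. The 5 IgG2b tumours served as controls. Untreated mice were not analysed here, and the labels give no ages. Each title carries its own tumour number, and each library was taken as 1 tumour of 1 mouse. Outcome groups were defined by tumour growth under the antibody, and tumours were bulk samples, in which fewer cells of a type and less RNA per cell cannot be told apart.

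Total counts ranged from 8.76 to 34.3 M per library. Protein-coding genes took 82.9% to 89.2% of counts in every non-responder, stable and control library. In 7 of 8 responders that share was 23.8% to 74.3%, and responder 5 stood apart at 87.0%. The 7 melanocyte markers Mlana, Dct, Tyr, Pmel, Sox10, Mitf and Tyrp1 checked the labelled line: they summed to 10504 to 17110 CPM in controls, 723 to 13868 CPM in non-responders, 227 to 504.4 CPM in stable tumours and 303 to 722 CPM in responders. Here CPM is counts per M counts of the TMM-scaled library (scaled by trimmed mean of M-values). The 10 T cell markers, all detected, summed to 11.1 to 32.4 CPM in controls, 26.7 to 225 CPM in non-responders, 163 to 265 CPM in stable tumours and 121 to 276 CPM in responders. Library numbers in the labels ran by group, so processing order and group cannot be told apart.

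All of the receptor genes but Ncr1 lie on chromosome 6. In the GRCm38 annotation Ncr1 was at chr7:4337724-4345164, plus strand. Klrb1c was at chr6:128778485-128789215, minus strand, and Klrg1 at chr6:122270596-122282882, minus strand. The remaining 5 receptor genes sat within a short stretch, with Klre1 at chr6:129577905-129585827 (plus), Klrd1 at chr6:129591782-129598775 (plus), Klrk1 at chr6:129610323-129623864 (minus), Klrc2 at chr6:129647496-129660689 (minus) and Klrc1 at chr6:129666015-129678973 (minus). The ligand genes were on chromosome 10, Ulbp1 at chr10:7440362-7473638 (minus) and Raet1e at chr10:22158569-22374139 (plus).

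Because the receptor transcripts moved together against controls, the sequence before their starts was read from RefSeq (GRCm38.p6). Promoters of 8 of the 10 genes were in that table, Klrd1 and Klrg1 being the others. The letters searched were TGTGGT, the core hexamer of RUNX factors, and AGGTGT, the core of T-box factors such as T-bet and Eomes, on both strands in the 250 bases before the start. The RUNX hexamer was found in all 6 receptor promoters present (2 copies in Ncr1, 1 in Klrb1c, 1 in Klrk1, 1 in Klrc1, 2 in Klrc2 and 1 in Klre1) and in neither ligand promoter. It occurs in 14.2% of 27025 promoters of that length. The T-box hexamer was found in 0 of the 8, against 12.0% of all promoters. Matches are a description of letters, and no binding was measured. Windows for Ncr1, Klrk1 and Klrc1 are shown whole, and only the matched sites for Klrb1c, Klrc2 and Klre1, whose annotated transcripts can start farther upstream. Sites of Klrb1c, Klrc2 and Klre1 therefore lie within the gene spans given above. Capitals mark the RUNX hexamer, written TGTGGT on the gene's strand or ACCACA on the other.
Ncr1, chr7:4337465-4337714, plus strand: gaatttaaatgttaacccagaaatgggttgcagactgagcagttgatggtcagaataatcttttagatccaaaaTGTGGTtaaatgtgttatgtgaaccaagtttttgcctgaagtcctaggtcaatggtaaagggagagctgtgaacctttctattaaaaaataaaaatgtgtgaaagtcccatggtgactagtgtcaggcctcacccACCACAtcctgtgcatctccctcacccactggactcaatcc
Klrk1, chr6:129623865-129624114, minus strand: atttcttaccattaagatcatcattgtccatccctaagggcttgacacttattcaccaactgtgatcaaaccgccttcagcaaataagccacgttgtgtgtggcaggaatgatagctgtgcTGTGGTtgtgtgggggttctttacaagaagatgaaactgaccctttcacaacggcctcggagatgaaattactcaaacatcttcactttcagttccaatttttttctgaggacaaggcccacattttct
Klrc1, chr6:129678974-129679223, minus strand: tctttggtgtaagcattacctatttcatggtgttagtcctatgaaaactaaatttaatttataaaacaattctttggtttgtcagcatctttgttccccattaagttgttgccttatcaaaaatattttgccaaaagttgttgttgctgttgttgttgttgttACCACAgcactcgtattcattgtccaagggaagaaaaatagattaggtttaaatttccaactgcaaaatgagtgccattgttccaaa
Klrb1c, chr6:128788715-128788740, minus strand: gaaggaaagcTGTGGTcatggtgttt
Klrc2, chr6:129660617-129660642, minus strand: caatagaatcACCACAgcatagaaca
Klrc2, chr6:129660597-129660615, minus strand: aagtagaattACCACAgag
Klre1, chr6:129577974-129577999, plus strand: gtgtttaagcTGTGGTtccagagagt

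Levels can be ordered between genes only per length, so the deposited RPKM values, which scale reads by gene length and library size, were used for the order. Averaged over the 25 tumours, Klrd1 stood at 9.88 ± 7.10 RPKM (SD, n = 25), Klrc1 at 9.68 ± 7.19 RPKM and Klrk1 at 9.26 ± 5.70 RPKM. Klrb1c at 3.61 ± 2.59 RPKM, Klre1 at 3.00 ± 2.21 RPKM, Ncr1 at 2.79 ± 1.98 RPKM, Klrc2 at 2.26 ± 2.00 RPKM and Ulbp1 at 2.11 ± 0.782 RPKM followed. Klrg1 at 0.827 ± 0.585 RPKM and Raet1e at 0.522 ± 0.258 RPKM were lowest. Each neighbouring pair in this order differed by less than the SD over tumours, apart from the steps from Klrk1 to Klrb1c, from Ulbp1 to Klrg1 and from Klrg1 to Raet1e, where the gap exceeded the SD of the lower gene. In controls the order was different at the top, with Klrk1 at 1.43 ± 0.748 RPKM (SD, n = 5), Ulbp1 at 1.18 ± 0.510 RPKM and Klrd1 at 1.01 ± 0.390 RPKM ahead of Klrc1 at 0.512 ± 0.248 RPKM.

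Reads of some of these genes could be shared with near-identical copies. Counts were not whole in 24 of 25 tumours for Klrc1 and Klrc2, in 21 for Raet1e, in 5 for Klrb1c, in 1 for Ulbp1 and in 0 for the other 5 genes. Of the words of 50 bases in its transcripts, Klrc1 shared 38.6% with Klrc2 or Klrc3, Klrc2 shared 16.3% with Klrc1 or Klrc3, Raet1e shared 44.7% with Raet1d or H60b, and Klrb1c shared 17.0%, most of it with the overlapping gene model Gm44511 (12.4%). Ncr1, Klrk1, Klrd1 and Klrg1 shared 0 words with any other gene. Values of Klrc1, Klrc2, Raet1e and Klrb1c are therefore uncertain in how reads were divided.

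Compared with IgG2b controls, transcripts of the receptors were higher in every anti-CTLA-4 group, including tumours that grew. Of the 10 genes, 9 were higher in responders at an adjusted p under 0.05 (edgeR quasi-likelihood test with Benjamini-Hochberg adjustment over 18031 genes), against 36.1% of all tested genes. In stable tumours 10 of 10 were higher, against 22.2% of all genes, and in non-responders 9 of 10, against 10.6% of all genes. Groups did not overlap for 7 of the 10 in responders (14.9% of all genes did not overlap in that direction), for 9 in stable tumours (18.4%) and for 3 in non-responders (2.67%). The median log2 fold change of the 10 genes was 2.89 in responders, 3.29 in stable tumours and 2.30 in non-responders, against 0.16, 0.02 and 0.04 over all tested genes. These 3 comparisons share the same 5 controls. With the outcome groups weighted equally and combined, 9 of 10 were higher (27.7% of all genes) and 2 did not overlap with controls (1.51%), with a median log2 fold change of 2.81.

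**Figure D1:**
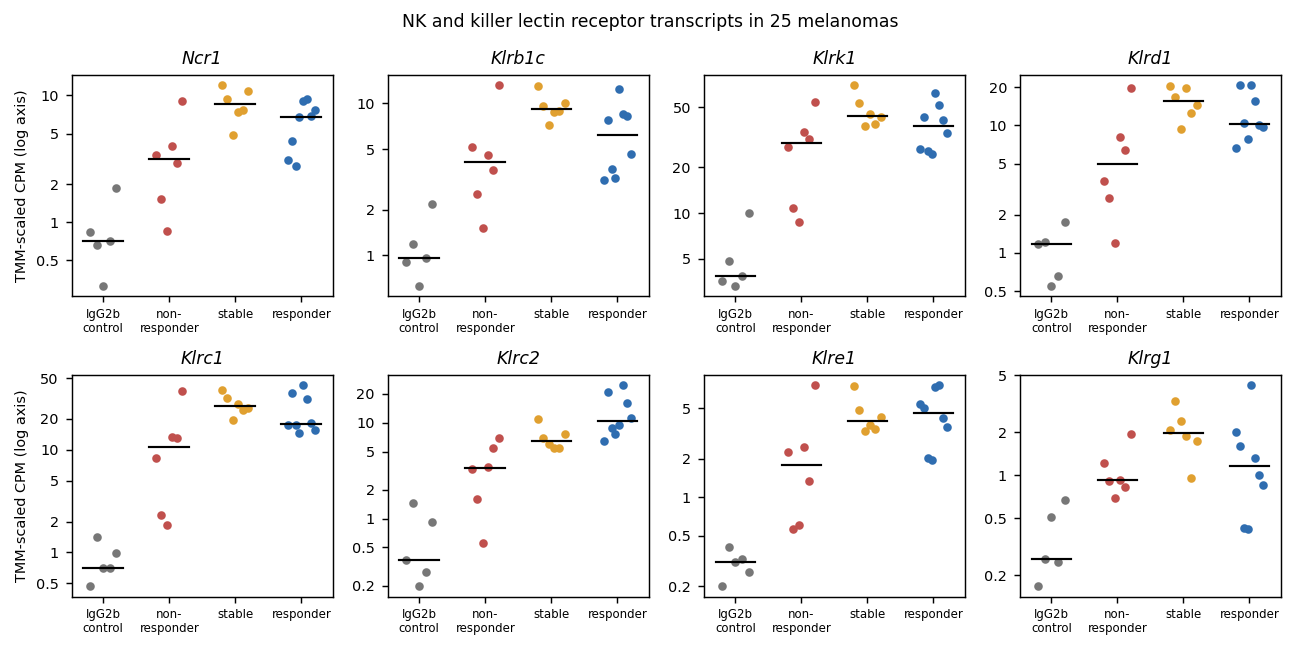
Level of each receptor transcript in every tumour, in TMM-scaled CPM on a log axis, by group (5 controls, 6 non-responders, 6 stable tumours, 8 responders); points are tumours and lines are group medians. Controls have the lowest median for every receptor. Non-responder 6 is the highest of its group for every receptor, and other non-responders also lie within the responder range, as for Ncr1, Klrb1c, Klrk1 and Klrg1.

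Among the activating receptors, Ncr1 encodes NKp46, the receptor most often used to define NK cells. It stood at 0.313, 0.663, 0.712, 0.833 and 1.86 CPM in the 5 controls. The lowest, median and highest values were 0.859, 3.16 and 9.06 CPM in non-responders, 4.91, 8.56 and 12.2 CPM in stable tumours and 2.79, 6.79 and 9.44 CPM in responders. All stable tumours and responders were above all controls, and 4 of 6 non-responders were. Ncr1 rose by 2.85 ± 0.50 on the log2 scale in responders (SE, adjusted p = 3.3e-05), by 3.33 ± 0.52 in stable tumours (adjusted p = 1.75e-05) and by 2.06 ± 0.49 in non-responders (adjusted p = 0.00648). The last call was lost when only the groups compared entered the fit (adjusted p = 0.0549).

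Klrb1c encodes NK1.1, the surface antigen used to sort NK and NKT cells in C57BL/6 mice. Controls held 0.626, 0.900, 0.959, 1.18 and 2.173 CPM. Non-responders held 1.504 to 13.3 CPM (median 4.12), stable tumours 7.25 to 13.1 CPM (median 9.21) and responders 3.12 to 12.4 CPM (median 6.21). Stable tumours and responders lay wholly above controls, and 5 of 6 non-responders did. The increases were 2.49 ± 0.46 in responders (log2, SE, adjusted p = 6.08e-05), 3.05 ± 0.48 in stable tumours (adjusted p = 2e-05) and 2.14 ± 0.46 in non-responders (adjusted p = 0.00288).

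Klrk1 encodes NKG2D itself, which is found on NK cells and on activated CD8 T cells. Its controls were at 3.29, 3.53, 3.84, 4.83 and 9.98 CPM. Non-responders ranged from 8.77 to 54.6 CPM (median 29.0), stable tumours from 37.8 to 70.6 CPM (median 44.0) and responders from 24.4 to 62.5 CPM (median 37.5). Control 5 was the highest control and overlapped only with non-responder 3. Klrk1 rose 7.65-fold in responders (log2 2.94 ± 0.40, adjusted p = 2.02e-06), 9.50-fold in stable tumours (3.25 ± 0.42, adjusted p = 2.31e-06) and 5.47-fold in non-responders (2.45 ± 0.40, adjusted p = 0.00049).

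Klrd1 encodes CD94, the invariant partner that pairs with NKG2A, NKG2C or NKG2E. Controls were at 0.548, 0.657, 1.17, 1.22 and 1.76 CPM. Values ran from 1.203 to 19.8 CPM in non-responders (median 5.03), from 9.31 to 20.6 CPM in stable tumours (median 15.6) and from 6.70 to 20.9 CPM in responders (median 10.3). Non-responder 3 alone lay within the range of the controls. Klrd1 rose by 3.60 ± 0.53 in responders (log2, adjusted p = 5.27e-06), 3.88 ± 0.55 in stable tumours (adjusted p = 6.31e-06) and 2.72 ± 0.53 in non-responders (adjusted p = 0.00124).

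Klrc1 encodes NKG2A, the inhibitory chain that binds the non-classical MHC molecule Qa-1 together with CD94. This gene showed the largest fold change of the 10 against controls in each outcome group. Its controls lay at 0.467, 0.704, 0.712, 0.983 and 1.40 CPM. Non-responders lay at 1.85, 2.33, 8.28, 12.9, 13.2 and 37.7 CPM, stable tumours from 19.7 to 38.3 CPM (median 26.8) and responders from 14.5 to 42.8 CPM (median 17.7). Every anti-CTLA-4 tumour, 20 of 20, was above every control. The rise was 28.4-fold in responders (log2 4.83 ± 0.61, adjusted p = 9.13e-07), 32.9-fold in stable tumours (5.04 ± 0.63, adjusted p = 1.83e-06) and 15.0-fold in non-responders (3.90 ± 0.60, adjusted p = 0.000462).

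Klrc2 encodes NKG2C, the activating relative of NKG2A that also pairs with CD94. Controls were at 0.196, 0.274, 0.367, 0.931 and 1.44 CPM. The non-responders were at 0.559, 1.60, 3.33, 3.48, 5.49 and 6.96 CPM, the stable tumours at 5.39, 5.51, 6.02, 6.87, 7.72 and 11.0 CPM, and the responders ran from 6.47 to 24.8 CPM (median 10.4). Responders and stable tumours lay wholly above controls, and 5 of 6 non-responders did. Klrc2 rose by 4.37 ± 0.58 in responders (log2, adjusted p = 1.42e-06), 3.47 ± 0.57 in stable tumours (adjusted p = 3.1e-05) and 2.49 ± 0.55 in non-responders (adjusted p = 0.00341).

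Klre1 encodes a chain that pairs with KLRI1 or KLRI2 on NK cells. It was low in controls, at 0.200, 0.259, 0.313, 0.329 and 0.405 CPM (5 to 12 counts). Non-responders held 0.562 to 7.61 CPM (median 1.80), stable tumours 3.29 to 7.42 CPM (median 3.96) and responders 1.96 to 7.55 CPM (median 4.57). As with Klrc1, all 20 treated tumours were above all controls. Klre1 rose by 3.91 ± 0.57 in responders (log2, adjusted p = 4.47e-06), 3.86 ± 0.58 in stable tumours (adjusted p = 1.23e-05) and 3.01 ± 0.56 in non-responders (adjusted p = 0.000983).

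Klrg1 encodes an inhibitory receptor for cadherins that marks late effector CD8 T cells and mature NK cells. It was the receptor with the lowest level per length. Controls were at 0.167, 0.247, 0.258, 0.509 and 0.673 CPM, which is 5 to 13 counts. Non-responders ran from 0.687 to 1.95 CPM (median 0.919), stable tumours from 0.958 to 3.31 CPM (median 1.97) and responders from 0.419 to 4.27 CPM (median 1.16). Responders 3 and 4, at 8 and 3 counts, overlapped with controls. Klrg1 rose by 2.03 ± 0.50 in responders (log2, adjusted p = 0.00125) and 2.48 ± 0.52 in stable tumours (adjusted p = 0.000478). In non-responders the rise was 1.57 ± 0.51 (adjusted p = 0.0432). That call was lost when any of 11 libraries was left out (stable 1, 4 or 6, non-responder 1, 4, 5 or 6, or control 1, 2, 3 or 4), with adjusted p up to 0.122.

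**Figure D2:**
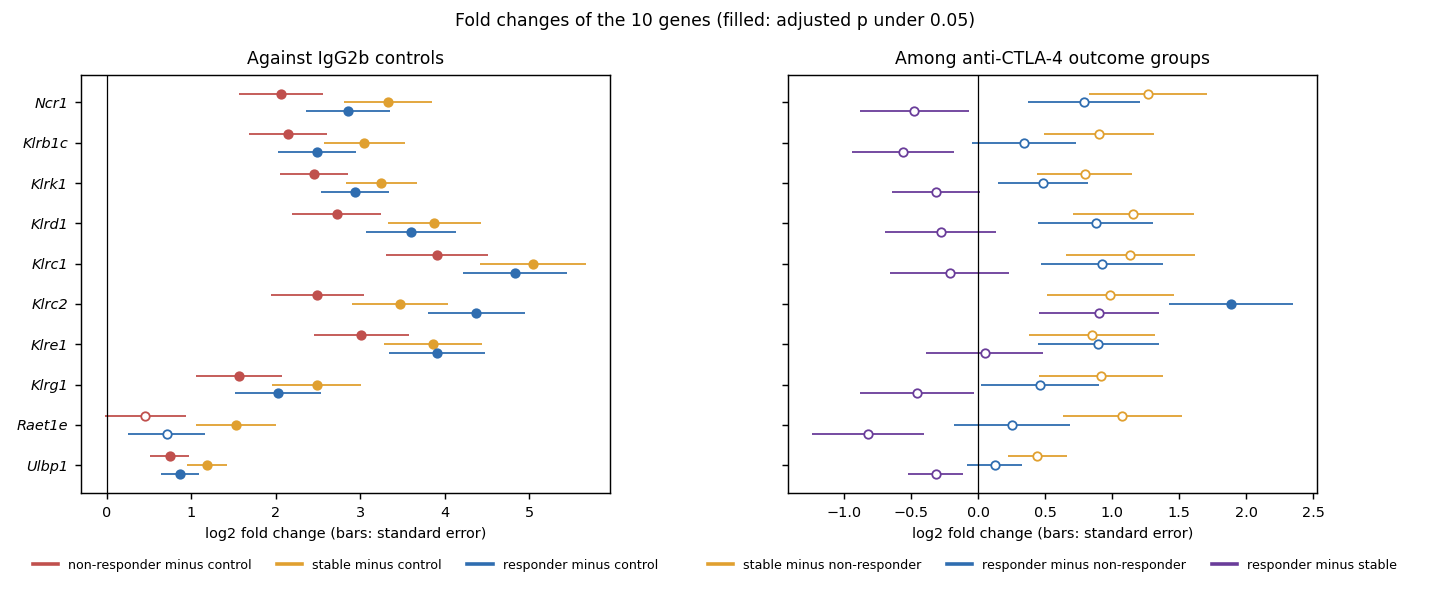
Log2 fold change of each of the 10 genes (horizontal axis; bars are standard errors), against controls on the left and between outcome groups on the right; filled points have an adjusted p under 0.05. Against controls only Raet1e in responders and non-responders is unfilled, and between outcome groups only Klrc2 in responders minus non-responders is filled.

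Between responders and non-responders, who received the same antibody, only Klrc2 of the 10 genes passed the test. It was 3.69-fold higher in responders (log2 1.89 ± 0.46, SE, edgeR adjusted p = 0.00242), and 7 of 8 responders were above all non-responders. With 1 gene of 10 called higher, 25.2% of all tested genes were called higher in that comparison. Once each library's protein-coding percentage entered the fit, 5.08% of all genes were called higher, and Klrc2 still was. The groups did not overlap for 0 of the 10 (2.07% of all genes). All 10 genes had a positive log2 fold change, with a median of 0.64 against 0.05 over all genes. The values were 0.79 ± 0.42 for Ncr1 (adjusted p = 0.116), 0.34 ± 0.39 for Klrb1c (adjusted p = 0.472), 0.48 ± 0.33 for Klrk1 (adjusted p = 0.231), 0.88 ± 0.43 for Klrd1 (adjusted p = 0.0907), 0.92 ± 0.46 for Klrc1 (adjusted p = 0.0945), 0.90 ± 0.45 for Klre1 (adjusted p = 0.0985) and 0.46 ± 0.44 for Klrg1 (adjusted p = 0.39).

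How many genes were called depended on the method and on which tumours were kept. Leaving out 1 tumour at a time gave 1 to 6 genes, and the highest number came without non-responder 6. Non-responder 6 held 54.6 CPM of Klrk1, 37.7 CPM of Klrc1, 19.8 CPM of Klrd1 and 9.06 CPM of Ncr1, which placed it among the responders. Without it, 6 of the 10 genes were called in responders minus non-responders: Klrc2 and, newly, Ncr1 (log2 1.31, adjusted p = 0.0107), Klrb1c (0.90, adjusted p = 0.0379), Klrd1 (1.54, adjusted p = 0.00295), Klrc1 (1.65, adjusted p = 0.00294) and Klre1 (1.68, adjusted p = 0.00177). The share of all tested genes called in that fit was not set beside this count. Non-responders 2 and 3 were at the other end, with the lowest values of the group for Klrk1, Klrd1, Klrc1, Klrc2 and Klre1.

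The Klrc2 call was kept under leaving out each of the 25 tumours (adjusted p between 0.00129 and 0.0074). It was kept when each library's protein-coding percentage entered the fit (log2 2.15, adjusted p = 0.0278) and in the RPKM table (limma on log2(RPKM + 1), 1.19, adjusted p = 0.000613). It was lost when a difference of at least 2-fold was required (edgeR's glmTreat, adjusted p = 0.163).

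Responders against stable tumours gave 0 of 10 genes at an adjusted p under 0.05 by edgeR, and 0 at an unadjusted p under 0.05, where 38.2% of all tested genes (20.5% higher) passed the adjusted threshold and 48.3% the unadjusted one. With the protein-coding percentage in the fit, 0 of the 18031 genes were called in this comparison. Groups did not overlap upward for 0 of 10 (0.427% of all genes). DESeq2 called 0 as well. Of the 10 log2 fold changes 8 were below 0, with a median of -0.32, against 0.01 over all genes. Klrc2 lay the other way at 0.90 ± 0.45 (adjusted p = 0.11), with 4 of 8 responders above all stable tumours. It passed when only these groups entered the fit (log2 0.93, adjusted p = 0.0312). Klre1 stood at 0.05 ± 0.44 (adjusted p = 0.943). Raet1e, at -0.82 ± 0.42 (adjusted p = 0.119), was called without responder 2 (log2 -1.21, adjusted p = 0.02), and Klrg1, at -0.46 ± 0.43 (adjusted p = 0.408), without responder 5 (-0.95, adjusted p = 0.0417).

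Stable tumours against non-responders gave 0 of 10 at an adjusted p under 0.05, against 14.9% of all genes (7.08% higher), although 7 of the 10 had an unadjusted p under 0.05 (29.2% of all genes). DESeq2 called 2, Ncr1 (adjusted p = 0.0224) and Klrd1 (adjusted p = 0.0491). All 10 were higher in stable tumours, with a median log2 fold change of 0.95. Ncr1 came closest, at 1.27 ± 0.44 (adjusted p = 0.0537), and Klrd1 was at 1.16 ± 0.45 (adjusted p = 0.0863). The Ncr1 value passed when responder 1, responder 3, control 3 or control 5 was left out (adjusted p 0.0438 to 0.0498). Without non-responder 6, 6 genes passed: Ncr1 (log2 1.79, adjusted p = 0.00374), Klrb1c (1.46, adjusted p = 0.0064), Klrk1 (1.11, adjusted p = 0.0245), Klrd1 (1.82, adjusted p = 0.00238), Klrc1 (1.86, adjusted p = 0.00328) and Klre1 (1.64, adjusted p = 0.00542). How many of all tested genes passed in that fit was not set beside this count.

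T cell markers moved with the receptors. In each outcome group 10 of 10 were higher than controls, against 36.1%, 22.2% and 10.6% of all genes (responders, stable tumours, non-responders). Each receptor was therefore set against the summed CD3 chains Cd3d, Cd3e and Cd3g of the same tumour, as log2 of the ratio of CPM values with 0.1 added to each side. Library scaling all but cancels in such a ratio. The CD3 chains did not move alike, however. Cd3e was above Cd3d in every responder but responder 5, and among stable tumours only in 1 and 6. It was above Cd3d in every non-responder but 6, and in controls 2, 3 and 4. Such shifts between genes do not cancel, and their part in the ratios was not tested. Over the 10 genes and 6 pairwise comparisons, 60 exact two-sided permutation tests were made and adjusted together.

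Klrc2 was the only gene whose CD3 ratio differed between outcome groups. The mean log2 ratio was -1.83 ± 0.58 in responders (SD, n = 8), -2.93 ± 0.25 in stable tumours (n = 6), -2.98 ± 0.31 in non-responders (n = 6) and -2.74 ± 0.75 in controls (n = 5). Responders exceeded non-responders by 1.15 (exact permutation adjusted p = 0.0155) and stable tumours by 1.09 (exact permutation adjusted p = 0.016). Both calls were kept when any tumour of the groups was left out (exact permutation adjusted p up to 0.0297 and 0.0397). Responder 5 was the exception among the responders: its ratio of -3.02 lay within the stable tumours, and it was the responder with the protein-coding share of the other groups, 87.0%. The part of library composition in the Klrc2 result was not tested in these ratios. Against Ptprc, which encodes the leukocyte antigen CD45, Klrc2 exceeded the non-responder ratio by 1.08 in responders (exact permutation adjusted p = 0.0175) and the stable ratio by 1.05 (exact permutation adjusted p = 0.0175).

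**Figure D3:**
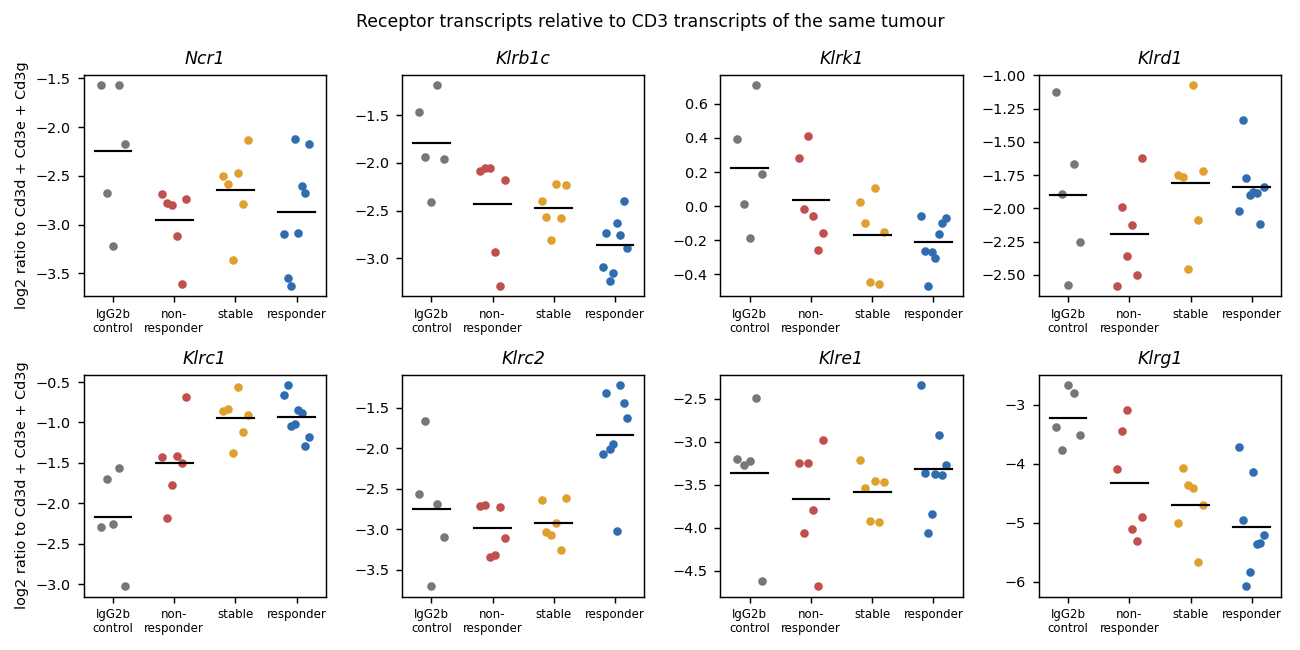
Log2 ratio of each receptor transcript to the sum of Cd3d, Cd3e and Cd3g in the same tumour, by group; points are tumours and lines are group means. For Klrc2, 7 of 8 responders lie above all stable tumours and non-responders; Klrc1 rises and Klrg1 falls against controls.

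Against controls the receptors divided by their CD3 ratio. Klrc1 rose faster than the CD3 chains, by 1.24 in responders (from -2.169 ± 0.58 in controls to -0.93 ± 0.25; exact permutation adjusted p = 0.0155) and by 1.23 in stable tumours (to -0.94 ± 0.28; exact permutation adjusted p = 0.0155). Controls did not overlap with either group. The stable value missed the threshold with 1 CPM added in place of 0.1 (0.54, exact permutation adjusted p = 0.0627).

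Klrg1, Klrb1c and Klrk1 rose less than the CD3 chains. The Klrg1 ratio fell by 1.85 in responders (exact permutation adjusted p = 0.017) and by 1.48 in stable tumours (exact permutation adjusted p = 0.0155). The Klrb1c ratio fell by 1.07 in responders (exact permutation adjusted p = 0.0155) and by 0.68 in stable tumours (exact permutation adjusted p = 0.04995). The stable Klrb1c call was lost when any of 10 tumours was left out, all 6 stable tumours and controls 1, 2, 4 and 5 among them, with adjusted p up to 0.114. Klrk1 fell by 0.44 in responders (exact permutation adjusted p = 0.0311), a call lost without responder 2 or 4 or without control 1, 4 or 5 (exact permutation adjusted p up to 0.084). In non-responders 0 of 10 CD3 ratios differed from controls at the adjusted threshold, and 2 had an unadjusted exact permutation p under 0.05. Without non-responder 6, the CD3 ratios of Klrc1 and Klrd1 also passed in responders minus non-responders (exact permutation adjusted p = 0.0117 and 0.0155).

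Against Ptprc, Klrc1 was higher than in controls in all 3 outcome groups, by 1.94 in responders (exact permutation adjusted p = 0.0175), 1.97 in stable tumours (exact permutation adjusted p = 0.0175) and 1.44 in non-responders (exact permutation adjusted p = 0.036), with no overlap in any. With 1 CPM added the non-responder value was 0.67 and its call was lost (exact permutation adjusted p = 0.0823). Klrd1 rose by 0.77 in responders (exact permutation adjusted p = 0.0339), a call lost without control 3 or 4 (exact permutation adjusted p up to 0.0727). With 1 CPM added the Klrd1 difference was 0.00024 (exact permutation adjusted p = 1.0). The Klrc2 ratio was 1.62 higher in responders than in controls (exact permutation adjusted p = 0.0175), and 0.37 with 1 CPM added (exact permutation adjusted p = 0.205), where the call was lost. Klrk1 rose by 0.58 in non-responders (exact permutation adjusted p = 0.036) and differed by -0.31 between responders and non-responders (exact permutation adjusted p = 0.036). The first Klrk1 call was lost without non-responder 1, 3, 4, 5 or 6 or control 3 (exact permutation adjusted p up to 0.068). The second missed the threshold on omitting any of responders 1, 2, 3, 4, 7 and 8 and of non-responders 1, 4, 5 and 6 (exact permutation adjusted p up to 0.0746). Ncr1 and Klre1 ratios passed in 0 comparisons on either denominator with 0.1 CPM added. With 1 CPM added, the Ncr1 ratio to CD3 was called below controls in responders (-1.20, exact permutation adjusted p = 0.0117), stable tumours (-1.04, exact permutation adjusted p = 0.0117) and non-responders (-1.10, exact permutation adjusted p = 0.0162). The Klre1 ratio to CD3 was called in responders (-1.10, exact permutation adjusted p = 0.0143) and stable tumours (-1.38, exact permutation adjusted p = 0.0117). These differences from controls depended on the amount added.

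The balance of Klrc2 to Klrc1, the activating and inhibitory partners of CD94, was noticed after the values were seen and is given without a test. Klrc2 counts were 22.0%, 37.2%, 50.9%, 51.9%, 58.1%, 73.1%, 79.2% and 89.5% of Klrc1 counts in the 8 responders. In stable tumours they were 19.2%, 21.5%, 22.4%, 28.7%, 30.3% and 30.6%. Of the 8 responders 7 were above every stable tumour, the exception again being responder 5 at 22.0%. So were 3 of 6 non-responders and 4 of 5 controls. Medians were 55.0% in responders, 25.6% in stable tumours, 35.2% in non-responders and 78.6% in controls. Non-responders spread from 18.5% (non-responder 6) to 68.5% (non-responder 2), and controls, on 5 to 39 Klrc2 counts, from 27.8% to 103%. In the RPKM table, which divides reads by length, responders had 14.5% to 43.3% and the stable tumours 12.4% to 20.8%. Non-responders had 13.7% to 31.3% there and controls 29.0% to 59.6%. By RPKM, responder 1 (19.4%) as well as responder 5 (14.5%) lay below the highest stable tumour. In counts, the summed level of Klrc1, Klrc2 and Klrc3 does not depend on how those counts were divided among these genes. The sum ran from 22.9 to 57.7 CPM in responders and from 25.9 to 49.97 CPM in the stable group, so that they overlapped.

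**Figure D4:**
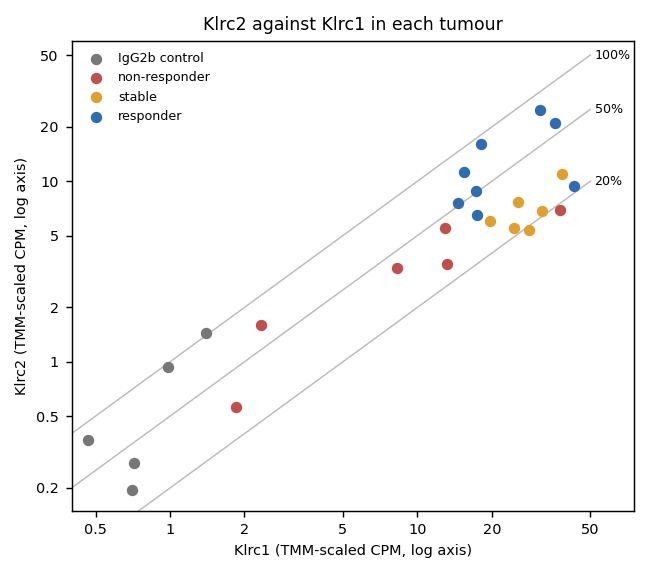
Klrc2 against Klrc1 in each of the 25 tumours, both in TMM-scaled CPM on log axes; grey lines mark Klrc2 at 20%, 50% and 100% of Klrc1. Responders (8 points) lie above the stable tumours (6 points) at equal Klrc1, apart from responder 5.

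Klrc3, which encodes NKG2E, had few counts. Responders exceeded non-responders in Klrc3 (log2 2.43 ± 0.68, adjusted p = 0.00576) and stable tumours (1.64 ± 0.65, adjusted p = 0.0486). Both Klrc3 calls were lost with the protein-coding percentage in the fit (1.75, adjusted p = 0.157, and 0.96, adjusted p = 0.612). The highest responder had 1.51 CPM, the highest stable tumour 0.647 CPM and the highest non-responder 0.250 CPM. The deposited RPKM values differed from these counts. Responder 6, at 1.51 CPM (16 counts), had 5.69 RPKM of Klrc3 beside 7.63 RPKM of Klrc2, whereas responder 1, at 1.12 CPM, had 1.05 RPKM. Stable tumour 2, at 1 count, had 0.829 RPKM. Why the 2 measures differed for Klrc3 was not tested. Klrc2 shares 4.07% of its 50-base words with Klrc3, and how reads were divided between them was not tested.

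Ulbp1, which encodes the NKG2D ligand MULT-1, was the more abundant ligand. Its controls were at 4.64, 5.97, 5.99, 8.30 and 9.78 CPM. Non-responders ran from 6.75 to 16.8 CPM (median 11.2), stable tumours from 13.0 to 19.4 CPM (median 15.4) and responders from 7.14 to 17.3 CPM (median 13.0). All stable tumours were above all controls, as were 6 of 8 responders and 4 of 6 non-responders. The rise was 1.82-fold in responders (log2 0.87 ± 0.22, adjusted p = 0.00175), 2.27-fold in stable tumours (1.19 ± 0.24, adjusted p = 0.000265) and 1.67-fold in non-responders (0.74 ± 0.23, adjusted p = 0.0344). The last call was lost without non-responder 2, 4 or 6 or without control 1, 2 or 3, with adjusted p up to 0.0959. Outcome groups differed by 0.12 ± 0.21 (responders minus non-responders, adjusted p = 0.635), -0.32 ± 0.21 (responders minus stable tumours, adjusted p = 0.22) and 0.44 ± 0.22 (stable tumours minus non-responders, adjusted p = 0.183).

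Raet1e encodes RAE-1 epsilon, another NKG2D ligand, and rested on 1 to 29 counts per tumour. Controls were at 0.184, 0.259, 0.274, 0.400 and 0.466 CPM. The non-responders held 0.301 to 0.568 CPM (median 0.426), stable tumours 0.436 to 1.39 CPM (median 1.01) and responders 0.140 to 1.39 CPM (median 0.287). Responders spread around the controls, with 3 of 8 above and 2 of 8 below all of them. Raet1e was higher in stable tumours (2.89-fold, log2 1.53 ± 0.48, adjusted p = 0.0116). It stood at 0.71 ± 0.46 in responders (adjusted p = 0.181) and 0.46 ± 0.48 in non-responders (adjusted p = 0.556). In the RPKM table the stable value missed the threshold (limma on log2(RPKM + 1), 0.29, adjusted p = 0.0669). The responder value passed once the protein-coding percentage entered the fit (1.55, adjusted p = 0.0287). The summed level of Raet1d and Raet1e does not depend on how reads were divided between these genes. That sum ran from 1.18 to 4.87 CPM in stable tumours and from 1.37 to 3.03 CPM in controls, so that they overlapped.

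**Figure D5:**
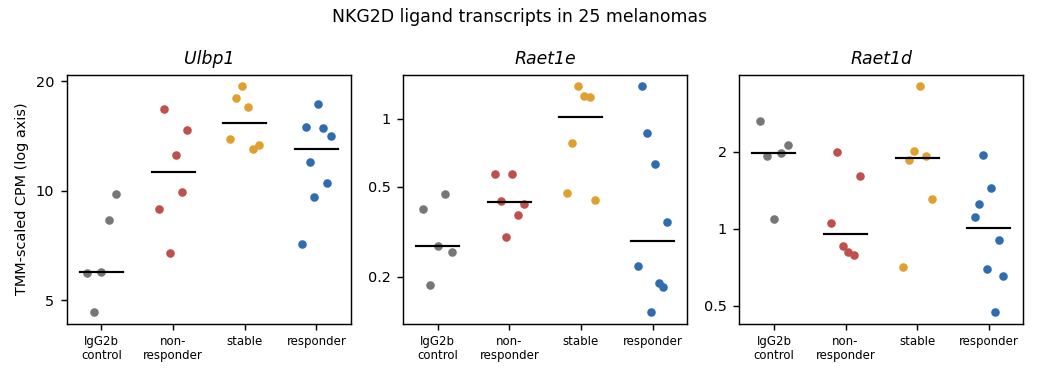
Level of the NKG2D ligand transcripts Ulbp1, Raet1e and Raet1d in every tumour, in TMM-scaled CPM on log axes, by group; points are tumours and lines are medians. Ulbp1 is higher in treated groups than in controls, and Raet1e is higher in stable tumours. Raet1d is lower in responders, a call lost once the protein-coding percentage entered the fit.

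Ratios of the ligands to the CD3 chains and to Ptprc were lower than in controls in responders and stable tumours. These denominators rose more than either ligand did. Ptprc rose by log2 2.67 in responders and 2.92 in stable tumours. The T cell markers, with the CD3 chains among them, rose by a median of 3.30 and 3.67. A lower ratio here is therefore not a lower level of the ligand transcript. The Ulbp1 ratio to CD3 differed from controls by -2.54 in responders and -2.499 in stable tumours (exact permutation adjusted p = 0.0155 for each), and the Raet1e ratio fell by 3.13 and by 2.47 (exact permutation adjusted p = 0.0155 for each), with no overlap with controls. Against Ptprc the Ulbp1 ratio was lower in responders than in controls (-1.83), in stable tumours than in controls (-1.75; exact permutation adjusted p = 0.0175 for both), in responders than in non-responders (-0.85, exact permutation adjusted p = 0.0244) and likewise in the stable group against non-responders (-0.77, exact permutation adjusted p = 0.036). With RPKM in place of CPM the last 2 calls were lost, at -0.44 (exact permutation adjusted p = 0.309) and -0.72 (exact permutation adjusted p = 0.0974). The last call was also lost without any 1 of the 6 stable tumours (exact permutation adjusted p up to 0.118). The Raet1e ratio to Ptprc differed from controls by -2.43 in responders and -1.72 in stable tumours (exact permutation adjusted p = 0.0175 and 0.026). Raet1d, a near copy of Raet1e (40.3% of Raet1e words shared) that was the single other NKG2D ligand past the filter, was lower in responders than in controls (log2 -0.86 ± 0.35, adjusted p = 0.0361). That call was lost with the protein-coding percentage in the fit (-0.62, edgeR adjusted p = 0.284). Other Raet1d differences from controls were -0.03 ± 0.37 in stable tumours (adjusted p = 0.961) and -0.71 ± 0.37 in non-responders (adjusted p = 0.211).

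Against controls, genes of the adaptors, kinases and other signalling proteins of these receptors followed the receptors. All 13 genes of that list were tested, and 12 were higher than controls in responders, 13 in stable tumours and 11 in non-responders. Of all tested genes 36.1%, 22.2% and 10.6% were higher in these comparisons. The median log2 fold changes of the 13 were 2.26, 2.42 and 1.39. Hcst encodes DAP10, the adaptor of NKG2D, and rose by 3.23 ± 0.48 in responders (log2, adjusted p = 5.22e-06), 3.75 ± 0.50 in stable tumours (adjusted p = 3.12e-06) and 2.76 ± 0.48 in non-responders (adjusted p = 0.000658). Tyrobp encodes DAP12, the adaptor of NKG2C, which myeloid cells use as well. It rose by 1.59 ± 0.39 in responders (adjusted p = 0.00113), 2.42 ± 0.42 in stable tumours (adjusted p = 5.99e-05) and 1.39 ± 0.40 in non-responders (adjusted p = 0.0222). The 7 myeloid markers moved with it. Of them 6 were higher in responders, 7 in stable tumours and 5 in non-responders (36.1%, 22.2% and 10.6% of all genes). The part of myeloid cells in the Tyrobp values was not tested.

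Between responders and non-responders 6 of the 13 genes of that list were higher, where 25.2% of all genes were. They were the kinase genes Syk (log2 1.10 ± 0.24, adjusted p = 0.00107), Zap70 (1.02, adjusted p = 0.023) and Lck (0.92, adjusted p = 0.028), with Vav1 (0.78, adjusted p = 0.013), Plcg2 (0.44, adjusted p = 0.0338) and the phosphatase gene Inpp5d (0.62, adjusted p = 0.0148). The adaptor genes Hcst and Tyrobp were not among them. Stable tumours exceeded non-responders in 5 of 13 (7.08% of all genes). The phosphatase gene Ptpn6 was the 1 gene of the list lower in responders than in stable tumours (-0.86, adjusted p = 0.0097), where 3202 of all 18031 genes were lower. With the protein-coding percentage in the fit, Syk kept its call (0.97, adjusted p = 0.0449), while Zap70 (0.90, adjusted p = 0.178), Lck (1.00, adjusted p = 0.113) and, against stable tumours, Ptpn6 (-0.48, adjusted p = 0.452) lost theirs. So did Vav1 (0.77, adjusted p = 0.101), Plcg2 (0.44, adjusted p = 0.158) and Inpp5d (0.74, adjusted p = 0.0605).

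Of 15 tested killer lectin-like genes outside the 10, 12 were higher than controls in responders, 13 in stable tumours and 8 in non-responders. Of all tested genes 36.1%, 22.2% and 10.6% were. Klra1, which encodes a Ly49 receptor, rose by 3.89 ± 0.61 in responders (adjusted p = 1.02e-05), and Klrb1f, a relative of NK1.1, by 3.93 ± 0.44 (adjusted p = 2.44e-07). Responders exceeded non-responders in 5 of the 15, where 25.2% of all genes were called higher: Klrb1f (1.57), Klrb1b (1.18), Klrc3 (2.43), Klra5 (1.84) and Klri1 (1.14). Of these, Klrb1f and Klrb1b kept their calls with the protein-coding percentage in the fit (adjusted p = 0.0434 and 0.0399). Among 15 further NK receptors 13, 14 and 13 were higher than controls in responders, stable tumours and non-responders. The shares of all genes were again 36.1%, 22.2% and 10.6%. The cytokine receptor genes Il18r1 (log2 4.36 ± 0.45, adjusted p = 1.28e-07) and Il12rb2 (4.38 ± 0.61, adjusted p = 2.56e-06) led in responders and were also higher there than in non-responders (1.59 ± 0.36, adjusted p = 0.00135, and 1.64 ± 0.48, adjusted p = 0.00787). The second of these was lost with the protein-coding percentage in the fit (1.63, adjusted p = 0.0768).

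Of 12 transcription factors of NK and innate lymphoid cells, 10 were higher and 1 lower than controls in responders, 8 were higher and 1 lower in stable tumours, and 7 were higher in non-responders. Of all tested genes 36.1%, 22.2% and 10.6% were higher in these comparisons, and 5212 and 3537 of 18031 were lower in the first 2. Ets1 was the lower gene in responders and in stable tumours (log2 -0.47 ± 0.10, adjusted p = 0.000397, and -0.29 ± 0.11, adjusted p = 0.0377). With the protein-coding percentage in the fit, its responder call was lost (-0.26, adjusted p = 0.0654) and its stable call was kept (-0.28, adjusted p = 0.0185). Runx3, a RUNX factor of cytotoxic lymphocytes, was higher in responders than in controls (3.09 ± 0.41, adjusted p = 1.42e-06), than in non-responders (1.72 ± 0.35, adjusted p = 0.000647), and in stable tumours than in non-responders (1.07 ± 0.36, adjusted p = 0.0472). Tbx21, which encodes T-bet, was above non-responders in responders by 0.97 ± 0.35 (adjusted p = 0.0267), a call lost with the protein-coding percentage in the fit (1.02, adjusted p = 0.119). Eomes, which is central to NK cell identity, rose against controls (1.85 ± 0.49 in responders, adjusted p = 0.00193) and stood at 0.11 ± 0.42 between responders and non-responders (adjusted p = 0.845).

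Over the 6 lists outside the 10 genes, 27 of 67 tested genes (40.3%) were called between responders and non-responders, in either direction, against 48.9% of all genes. Once each library's protein-coding percentage entered the fit the count was 6 of 67 (8.96%), against 10.04% of all genes.

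Of 11 tested ligands of the other receptors, 5 were higher and 2 lower than controls in responders, 5 higher and 1 lower in stable tumours, and 4 higher and 0 lower in non-responders. Of all tested genes 36.1%, 22.2% and 10.6% were higher in these comparisons, and 5212, 3537 and 593 of 18031 were lower. H2-T23, which encodes Qa-1, the ligand of CD94 with NKG2A, was at 77.1 to 136 CPM in controls and 292 to 639 CPM in responders, a log2 rise of 1.95 ± 0.36 (adjusted p = 5.81e-05). It rose by 2.71 ± 0.38 in stable tumours (adjusted p = 5.89e-06) and 1.78 ± 0.37 in non-responders (adjusted p = 0.002). Cdh1, which encodes the KLRG1 ligand E-cadherin, stood at -0.10 ± 0.31 in responders (adjusted p = 0.784), -0.53 ± 0.33 in stable tumours (adjusted p = 0.205) and -0.43 ± 0.33 in non-responders (adjusted p = 0.406).

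Markers of the cells that could carry these receptors were checked next to them. All 8 NK cell markers were detected, and they summed to 3.56 to 11.3 CPM in controls, 7.82 to 90.0 CPM in non-responders, 50.6 to 81.6 CPM in stable tumours and 27.97 to 81.7 CPM in responders. Against controls 7 of 8 were higher in responders, 8 in stable tumours and 7 in non-responders, where 36.1%, 22.2% and 10.6% of all genes were. Ncr1, Klrb1c and Klre1 are among the 8 NK cell markers. Gamma delta and innate-like T cell markers summed to 14.0 to 27.4 CPM in responders and 9.89 to 16.6 CPM in stable tumours. Their sum was 4.86 to 12.5 CPM in non-responders and 3.13 to 8.84 CPM in controls. In responders 3 of 6 were called higher than in non-responders, where 25.2% of all genes were. Against stable tumours 0 of 6 were called higher in responders, where 20.5% of all genes were. Of 6 innate lymphoid cell markers 4 were tested, and 1 of the 4, Il7r, was higher than controls in each outcome group. The shares of all genes were 36.1%, 22.2% and 10.6%. The median log2 fold change of the 4 was -0.66 in responders, -0.56 in stable tumours and -0.67 in non-responders. The list of 6 summed to 36.7 to 121 CPM in responders, 47.3 to 102 CPM in stable tumours, 16.4 to 43.4 CPM in non-responders and 11.1 to 93.9 CPM in controls. How much of each receptor level came from NK cells, T cells or other lymphocytes was not tested.

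The genes most like Ncr1 over the 25 tumours, by Pearson correlation of log2 CPM among 13593 protein-coding genes, were Clec2i (r = 0.97), Prf1 (r = 0.97), Rhof (r = 0.96), Stat4 (r = 0.96) and Ctsw (r = 0.95). Those most like Klrk1 were Ms4a4b (r = 0.99), Il2rb (r = 0.99), Cd96 (r = 0.98), Rhof (r = 0.98) and Ctsw (r = 0.98). With group means removed the values were 0.83 to 0.92 for Ncr1 and 0.93 to 0.96 for Klrk1. Tumours share groups and library composition, and these values are descriptions.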

How the data were processed

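RNA libraries of 25 tumours were used. The authors deposited expected counts of 55450 genes without normalization, 5.64% of them fractional. They also deposited RPKM values for 19522 symbols (19518 unique); the lengths and read totals behind the deposited RPKM are not stated. The submitters' processing notes name bcl2fastq 2.17, Trimmomatic, STAR 2.5.1, RSEM 1.2.22 and mm10, without their roles. The labels name a stranded total RNA kit and polyA RNA, which was not resolved. Gene identifiers matched GENCODE M21 (GRCm38).

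Expected counts were rounded to whole numbers, since the test planned was for counts. The fit used edgeR 4.0.16 in R 4.3.3: filterByExpr (18031 genes), TMM, 4 group means over all 25 tumours, robust quasi-likelihood F tests for 7 contrasts, two-sided, Benjamini-Hochberg adjustment over all tested genes, threshold 0.05. It was tested on simulated counts. CPM values are TMM-scaled. Ratios to CD3 chains or Ptprc added 0.1 CPM and were tested by exact permutation, 60 tests per denominator.

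Alternatives were DESeq2 1.42.0, limma 3.58.1 on log2 RPKM, RLE scaling, other filters, protein-coding genes only, a covariate, a 2-fold requirement, each of 25 tumours left out and, added after seeing the data, leaving out libraries under 50% protein-coding counts. Replicate numbers follow record order and pair no tumours. Replicates of a group differed by a chi-square of at least 15.7 per gene, so no library was a duplicate. The labels do not say more of separate animals, and p-values measure the spread between these samples. The members and lists were chosen with earlier results of these data known. All members were named. From each list up to 4 called genes of the largest change were named, with a mean of at least 1 CPM, and others were named for their role or because few were called, after their values were seen.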

Additional observations from a re-analysis of the deposited data

Results flagged for a closer look

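Sets of values were flagged where a tumour stood far from the rest of its group, with a gap to the nearest tumour that was large beside the whole range. The sets share tumours and the genes moved together, so no chance rate can be set beside the number flagged. Among 40 sets (10 genes in 4 groups), 7 were flagged. Of these, 4 were non-responder 6, at 13.3 CPM for Klrb1c (nearest 5.19 CPM), 19.8 CPM for Klrd1 (nearest 8.09 CPM), 37.7 CPM for Klrc1 (nearest 13.2 CPM) and 7.61 CPM for Klre1 (nearest 2.47 CPM). Control 5 stood apart at 9.98 CPM for Klrk1 (nearest 4.83 CPM), stable tumour 1 at 7.42 CPM for Klre1 (nearest 4.83 CPM) and responder 5 at 4.27 CPM for Klrg1 (nearest 2.01 CPM).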

How the results depend on the processing

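Of the 10 genes, the number called moved by more than 1.5 times as follows. In responders minus non-responders (1 gene) it was 0 under a 2-fold requirement, 5 with limma on log2(RPKM + 1) and 5 on log2(RPKM + 0.1). In responders minus stable tumours (0 genes) it was 1 with only the groups compared. In stable tumours minus non-responders (0 genes) it was 1 with protein-coding genes only, 1 with the stricter filter, 5 and 4 with limma (RPKM + 1 and + 0.1), 2 with DESeq2 and 1 without libraries under 50% protein-coding counts. In non-responders minus controls (9 genes) it was 4 under a 2-fold requirement. Pathway genes called were 6 with the covariate in responders minus non-responders (27) and, in responders minus stable tumours (2), 0 with the covariate and 1 with protein-coding genes only. Leaving out 1 tumour at a time gave 1 to 6, 0 to 1 and 0 to 6 genes between outcome groups in that order, and against controls 9 to 9 in responders, 10 to 10 in stable tumours, 7 to 9 in non-responders and 9 to 9 combined.
Ratio calls to CD3 moved to 3 in responders minus non-responders with RPKM (from 1), and in non-responders minus controls to 5 with 1 CPM added and 5 with RPKM (from 0). Ratio calls to Ptprc moved to 5 with 1 CPM added and 1 with RPKM in responders minus non-responders (from 3), to 6 in stable tumours minus controls (from 3) and 4 in non-responders minus controls (from 2) with 1 CPM added, and to 0 in stable tumours minus non-responders with RPKM (from 1). Leaving out 1 tumour gave, for CD3, 1 to 3, 1 to 2 and 0 to 1 between outcome groups in that order and 5 to 7, 4 to 5 and 0 to 1 against controls (responders, stable, non-responders), and for Ptprc 2 to 4, 1 to 1 and 0 to 1, and 4 to 6, 3 to 4 and 1 to 2. With 1 CPM added, these ratios turned negative: Klre1 to CD3 (-1.10) and Ncr1 to Ptprc (-0.75) in responders minus controls, Klrb1c (-0.63) and Klre1 (-0.90) to Ptprc in stable tumours minus controls, and Ncr1 to Ptprc (-0.55) in non-responders minus controls. The cause was not tested. Low counts limit Raet1e, Klrg1 and the controls. No paired analysis was possible because the replicate numbers come from record order.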

Other observations

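H60b, another NKG2D ligand, did not pass the low-count filter, and the deposited tables differed for it: it was listed at 0 CPM in all 8 responders, while the RPKM table gave 0.716 to 3.19 RPKM there and 0.0208 to 0.366 RPKM in controls.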
